A study of Mus musculus with 4 samples.

Results

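Fibroblast growth factors (FGFs) and the genes that FGF signalling switches on to restrain itself were measured in Btaf1 mutant mouse embryos and their wild-type counterparts. The set holds 10 genes, chosen by name from the 27827 names that the array's design gives to its probes: the ligands Fgf3, Fgf8, Fgf15 and Fgf17, the Sprouty inhibitors Spry1, Spry2 and Spry4, the phosphatase gene Dusp6, the transcription factor gene Etv4, and Phlda1. Every probe on the array that carried one of these names was taken, whatever its signal, which gave 13 of the 41174 probes that were not controls. Of these, 11 probes for 9 genes were bright enough to test, and the 2 probes for Spry4 were not.

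The mutant embryos were homozygous for Btaf1 V1330M, a missense change induced with the mutagen ENU in C57BL/6J mice. BTAF1 takes the TATA-binding protein off DNA, using ATP. The wild-type embryos carried 2 normal Btaf1 alleles. Both genotypes were on a hybrid C57BL/6J *FVB/NJ background, with an FVB share of 50 to 90%, and the labels name no other treatment or allele. RNA was taken from whole embryos in pools, so each value is an average over several embryos whose number is not given in the sources used here. Embryos with 3 to 5 somites, the paired blocks of trunk mesoderm that count developmental stage, were used where possible.

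The comparison was made in 2 sets of pools. In the age-matched set, taken here to be the one that favoured litter mates, mutant and wild-type embryos could differ by up to 5 somites. In the stage-matched set somite number had priority. Each set was hybridised on 2 two-colour arrays with the dyes exchanged, so there were 4 arrays but at most 2 independent comparisons. The p-values rest on the spread between those sets, pooled for the most part over all tested probes. A probe's own spread had 1 degree of freedom, against 7.14 from the pooled spread. Nothing in the sources used here says that the pools of the sets shared no embryo.

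Most FGFs are secreted proteins that bind receptor tyrosine kinases on nearby cells and, through RAS, activate the kinase ERK. ERK activity induces ETS-type transcription factors such as Etv4 and also inhibitors such as the Sproutys and Dusp6, which damp the same relay, so the level of these transcripts is widely read as a sign of recent signalling. In the embryo just after gastrulation, Fgf8 is made in the tail bud, the midbrain-hindbrain boundary, the anterior forebrain and the pharyngeal region. There it acts in axis extension, segmentation and brain patterning.

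Over the set as a whole, 1 gene changed and 8 did not pass the test. Phlda1 fell by 0.54 on the log2 scale in mutant embryos, 1.45-fold lower. None of the 4 ligands was called, and neither were the 2 measured Sproutys, Dusp6 or Etv4. The log2 ratios of those 8 genes, mutant over wild type, lay between -0.10 for Spry1 and 0.26 for Fgf8.

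All tests were made with limma on log2 ratios, 1 mean per set, with Benjamini-Hochberg adjustment over the 21939 probes that passed the filter and a threshold of 0.05. A probe passed the filter if at least 1 genotype was well above background on every array, and a gene is given by its brightest tested probe. Against the 1 of 11 member probes that was called, 4.81% of all tested probes were called, and against the 1 of 9 genes, 4.89% of 13817 genes. For calls lower in mutant embryos the share of all genes was 2.77%, and the count of 1 in 9 is not read as particular to these genes. The median log2 ratio was 0.08 over the 9 genes and 0.02 over all tested genes, whose 5th and 95th percentiles were -0.35 and 0.32. The 2 values per probe limit what could be seen. The 95% intervals of the 8 uncalled genes reached from -0.32 at the lowest to 0.53 at the highest, so a p that missed the threshold leaves room for changes of that size.

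**Figure D1:**
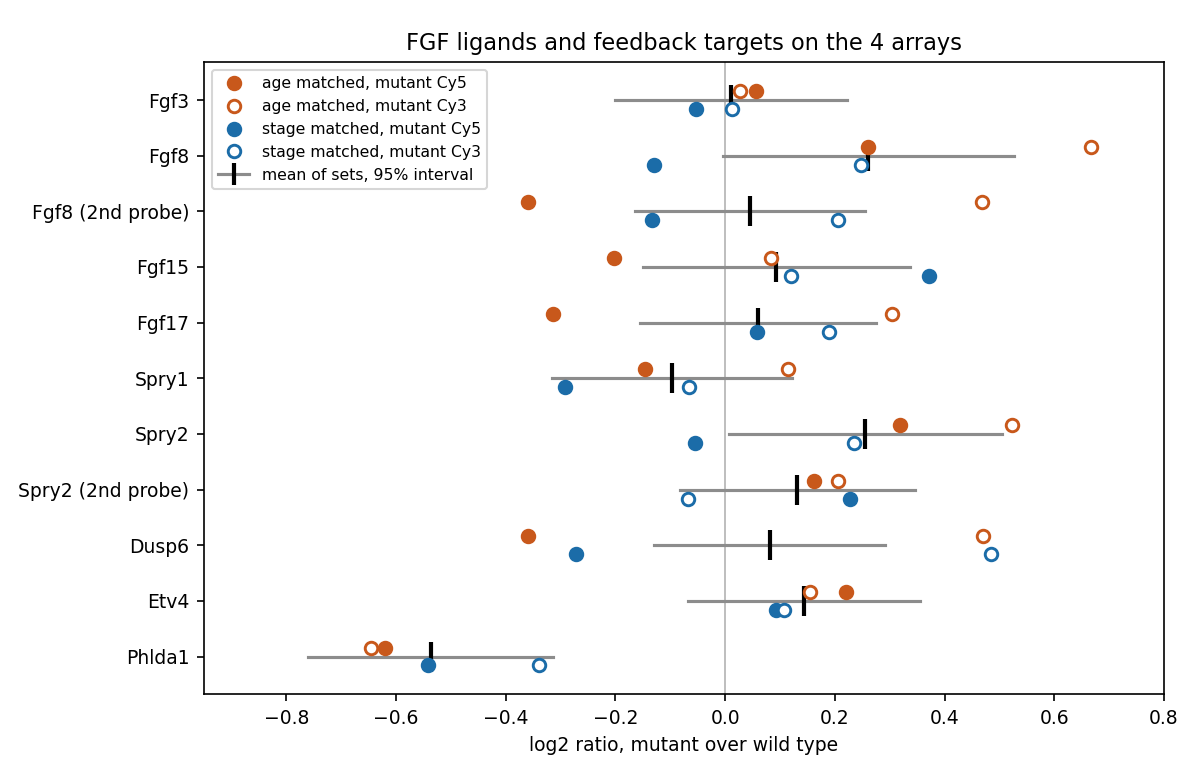
Log2 ratio of mutant over wild type (x axis) for the 11 tested probes (rows), with 1 point per array, filled where the mutant RNA carried Cy5 and open where it carried Cy3, and with the mean of the sets and its 95% interval as a bar. All 4 points of Phlda1 lie between -0.65 and -0.34, while for Dusp6 the filled and open points fall on opposite sides of 0.

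The probes are 60 bases long. Those that bear most on the results are shown 5′ to 3′ from the scanner files, in lower case throughout. The second Fgf8 probe is shown because its ratios departed from those of the other Fgf8 probe, the Fgf3 probe because it joins separate stretches of the genome, and the first 30 bases of the Phlda1 probe because Phlda1 was the gene that changed.
Fgf8 second probe: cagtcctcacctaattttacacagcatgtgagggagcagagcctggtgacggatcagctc
Fgf3 probe: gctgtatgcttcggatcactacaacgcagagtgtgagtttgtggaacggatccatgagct
Phlda1 probe, start: atgactttatttatggacctttggaaggat
In the mm9 build named in the file headers, this Fgf8 probe lies at chr19:45816101-45816160 on the minus strand. The Fgf3 probe spans chr7:152026667-152028526 on the plus strand, 1860 bases for a 60-base probe, so it reads spliced transcript. The Phlda1 probe lies at chr10:110945310-110945369 on the plus strand. No gene annotation of that build was used here, so exon and UTR positions are not given.

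Phlda1 encodes a small protein with a pleckstrin homology-like domain whose transcript is induced by growth factors that act through ERK. Its log2 ratio was -0.62 and -0.65 on the age-matched arrays and -0.54 and -0.34 on the stage-matched arrays. Mutant embryos were thus lower on all 4 arrays, in both dye orientations. The mean was -0.54 ± 0.14 (SD, n = 2 sets), a 1.45-fold lower level with a 95% interval of -0.76 to -0.31 on the log2 scale (adjusted p = 0.0258, limma). The normalised log2 intensity of the mutant channel was 11.54 and 10.79 on the age-matched arrays and 11.76 and 11.90 on the stage-matched arrays, against 12.16 and 11.44, and 12.30 and 12.24, in the wild-type channel. These ranges overlap between genotypes because both channels were dimmer on 1 age-matched array, although the mutant channel was the lower one within each array. Levels of the genotypes overlapped over the 4 arrays for each of the 9 genes, so 0 of 9 were free of overlap, against 8.49% of all tested genes.

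The call on Phlda1 rested on few arrays. It was lost without age-matched replicate 1 (adjusted p = 0.239, limma), without age-matched replicate 2 (0.059) and without stage-matched replicate 1 (0.0724). Without background correction the adjusted p was 0.0666. The estimate itself stayed between -0.61 and -0.49 over the 12 alternatives run. The ratio of the age-matched set minus that of the stage-matched set was -0.19 (95% interval -0.54 to 0.15, adjusted p = 0.773, limma).

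Fgf8, the ligand that organises the midbrain-hindbrain boundary and keeps tail bud cells undifferentiated, was measured by 2 probes. The brighter one, at chr19:45811364-45811423, was printed in 10 spots per array. Its log2 ratio was 0.26 and 0.67 on the age-matched arrays and -0.13 and 0.25 on the stage-matched arrays. The highest ratio and the only negative one thus came from different sets, and the mean of 0.26 ± 0.29 (SD, n = 2 sets) was smaller than the spread between sets. The 95% interval was -0.0044 to 0.53 (adjusted p = 0.226, limma).

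The spots of the repeated probe show how much of that spread lay within an array. On the age-matched array with mutant RNA in Cy5 the 10 spots had an SD of 0.078, and on the one with mutant RNA in Cy3 the 9 unflagged spots had an SD of 0.076. On the stage-matched arrays the SD was 0.162 with mutant RNA in Cy5 and 0.079 with mutant RNA in Cy3. All spots were positive on 3 arrays, and 1 of 10 was positive on the stage-matched array with mutant RNA in Cy5. The highest and the lowest array mean, 0.67 and -0.13, lay further apart than the scatter of spots, whereas the means of 0.26 and 0.25 did not. That scatter measures only the printing and reading of 1 labelled sample.

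**Figure D2:**
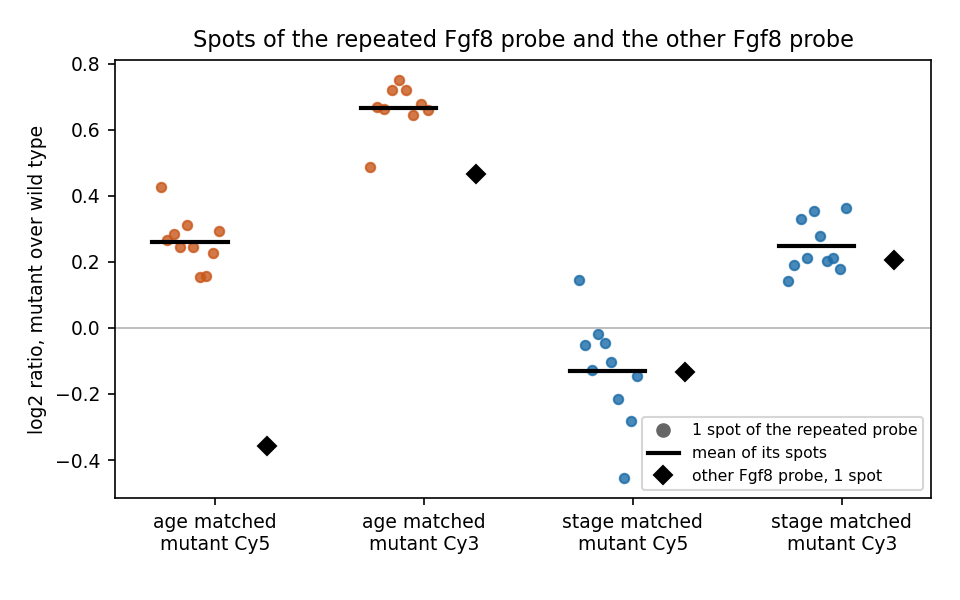
Log2 ratio of mutant over wild type (y axis) for each spot of the repeated Fgf8 probe on each array (points), the mean of its spots (bar) and the other Fgf8 probe (diamond). The diamond lies far below the points on the age-matched array with mutant RNA in Cy5, at -0.36 against a mean of 0.26.

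The second Fgf8 probe, which lies 4.68 kb away and whose sequence is given above, had log2 ratios of -0.36 and 0.47 on the age-matched arrays and -0.13 and 0.21 on the stage-matched arrays. Its sign followed the dye in both sets, and its mean was 0.05 (95% interval -0.16 to 0.26, adjusted p = 0.812, limma). The probes of Fgf8 thus differed most on the age-matched array with mutant RNA in Cy5. The second probe had a log2 intensity of 7.30 to 7.92 in the mutant channel and 7.46 to 7.67 in the wild-type channel. The brighter probe read 11.72 to 13.06 in the mutant channel and 11.59 to 12.39 in the wild-type channel. Levels of different probes cannot be ranked as amounts of RNA. Fgf8 lies on the same chromosome as Btaf1, with 8.72 Mb between the Btaf1 probe at chr19:37086826-37086885 and the nearer Fgf8 probe.

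By its brighter probe, Fgf8 was also the member whose ratio differed most between sets. This probe was 0.41 higher in the age-matched set than in the stage-matched set (95% interval 0.06 to 0.75, unadjusted p = 0.0211, limma). After adjustment over all probes this did not pass (adjusted p = 0.28, limma), and 0 of the 11 member probes did, against 2.32% of all tested probes. The brighter Fgf8 probe was the 1 member probe with an unadjusted p under 0.05 for the difference. For the second Fgf8 probe the difference was 0.02 (95% interval -0.33 to 0.36, adjusted p = 0.988, limma). The error of this test comes from exchanging dyes on the same pools and is technical. The age-matched set was the one in which a stage difference was allowed.

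Fgf15, the mouse counterpart of human FGF19 and made in the early neural tube and pharyngeal region, had log2 ratios of -0.20 and 0.08 on the age-matched arrays and 0.37 and 0.12 on the stage-matched arrays. Both stage-matched arrays were above 0 and the age-matched arrays lay on either side of it. The mean was 0.09 ± 0.22 (SD, n = 2 sets; 95% interval -0.15 to 0.34, adjusted p = 0.654, limma). The age-matched set was lower than the stage-matched set by a log2 difference of -0.31, again short of the threshold (95% interval -0.65 to 0.04, adjusted p = 0.515, limma). Its probe, at chr7:152086371-152086430, lies 57.8 kb from that of Fgf3.

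Fgf3, which acts with other FGFs in hindbrain and inner ear induction and in the tail bud, was the member closest to no difference. Its log2 ratio was 0.06 and 0.03 on the age-matched arrays and -0.05 and 0.01 on the stage-matched arrays. All 4 values lay within 0.06 of 0, and the mean was 0.01 (95% interval -0.20 to 0.22, adjusted p = 0.96, limma). The probe was dim, at a log2 intensity of 7.21 to 7.29 in the mutant channel and 7.22 to 7.26 in the wild-type channel. It was nevertheless well above background in both channels on all 4 arrays. A dim probe can understate a change, since the background correction adds a constant of 50 intensity units to every signal.

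Fgf17, a close relative of Fgf8 that acts beside it at the midbrain-hindbrain boundary, had log2 ratios of -0.31 and 0.30 on the age-matched arrays and 0.06 and 0.19 on the stage-matched arrays. The age-matched arrays thus had opposite signs in the 2 dye orientations. The mean was 0.06 (95% interval -0.16 to 0.28, adjusted p = 0.757, limma). With the scanning software's processed signals the mean was 0.38, above that interval, and still not called (adjusted p = 0.105, limma). Its probe was dim, and the wild-type channel was well above background on 3 of 4 arrays.

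Spry2, an inhibitor of receptor tyrosine kinase signalling that ERK activity itself induces, was the only member other than Phlda1 with an unadjusted p under 0.05 (0.0451, limma). Its brighter probe had log2 ratios of 0.32 and 0.52 on the age-matched arrays and -0.05 and 0.23 on the stage-matched arrays. On 3 arrays the ratio was above 0, and on the remaining one it was close to 0. The mean was 0.26 ± 0.23 (SD, n = 2 sets), with a 95% interval of 0.01 to 0.50, and it did not pass after adjustment (adjusted p = 0.207, limma). An unadjusted p that low was found in 2 of 11 member probes and in 22.9% of all tested probes. The second Spry2 probe, whose start lies 516 bases away, had log2 ratios of 0.16 and 0.21 on the age-matched arrays and 0.23 and -0.07 on the stage-matched arrays, with a mean of 0.13 (adjusted p = 0.447, limma). For Spry2 the age-matched set minus the stage-matched set gave 0.33 for the brighter probe (95% interval -0.01 to 0.68, adjusted p = 0.445, limma) and 0.10 for the other.

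Spry1, the Sprouty family member with a textbook role in the kidney, had the lowest mean of the uncalled genes. Its log2 ratio was -0.15 and 0.11 on the age-matched arrays and -0.29 and -0.07 on the stage-matched arrays. On 3 arrays the ratio was below 0, and the mean was -0.10 ± 0.12 (SD, n = 2 sets; 95% interval -0.32 to 0.12, adjusted p = 0.598, limma). The mutant channel read 10.46 to 10.70 and the wild-type channel 10.59 to 10.75, so the genotypes overlapped.

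Spry4 could not be assessed. Its 2 probes were not well above background in either genotype on any of the 4 arrays, so no fold is given. Their log2 intensities, 6.03 to 6.26 in the mutant channel and 6.04 to 6.28 in the wild-type channel, are bounds set by the background rather than levels.

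Dusp6 encodes the phosphatase that removes activating phosphates from ERK and gave a bright signal, at a log2 intensity of 13.76 to 14.38 in the mutant channel and 13.77 to 14.16 in the wild-type channel. No spot on any array was saturated. Its log2 ratio was -0.36 and 0.47 on the age-matched arrays and -0.27 and 0.48 on the stage-matched arrays. The ratio thus depended on which dye the mutant RNA carried, averaging -0.32 with mutant RNA in Cy5 and 0.48 with mutant RNA in Cy3. This gap of 0.79 was beyond the 95th percentile of all tested probes, 0.68. The mean over both orientations was 0.08 ± 0.04 (SD, n = 2 sets), with a 95% interval of -0.13 to 0.29 (adjusted p = 0.655, limma). At either dye orientation the ratios of the sets lay close together, and any single array of Dusp6 would have shown a difference of at least 0.27 in size.

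Etv4, a transcription factor of the PEA3 group that ERK activity induces, had log2 ratios of 0.22 and 0.15 on the age-matched arrays and 0.09 and 0.11 on the stage-matched arrays. Mutant embryos were higher on all 4 arrays, but by little. The mean was 0.14 ± 0.06 (SD, n = 2 sets; 95% interval -0.07 to 0.36, adjusted p = 0.402, limma). Etv4 and Phlda1 were the 2 of 9 members with the same sign on all 4 arrays, against 28.5% of all tested genes.

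**Figure D3:**
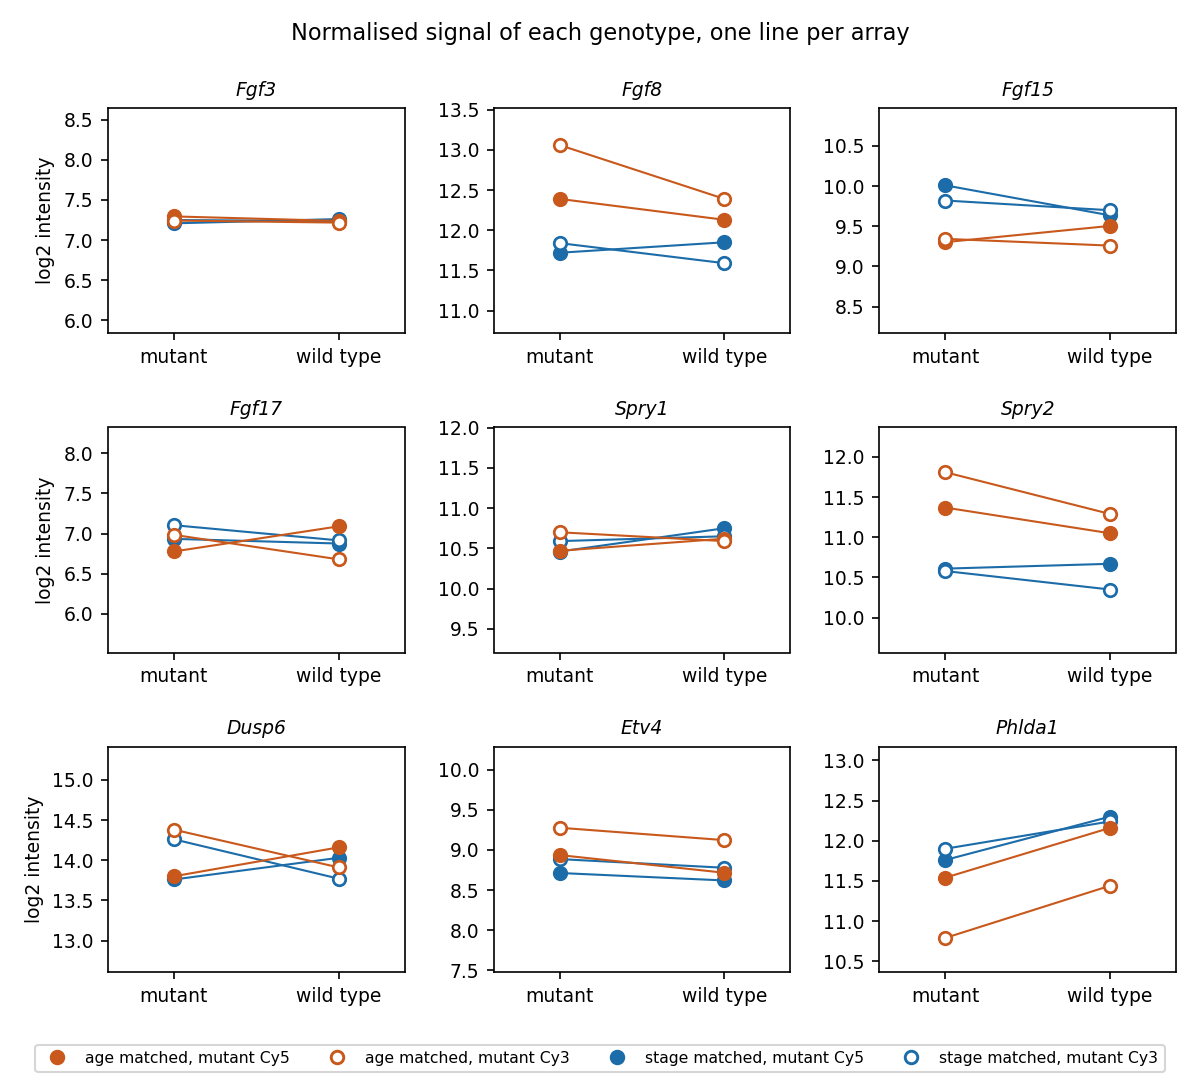
Normalised log2 intensity (y axis) of the mutant and the wild-type channel for the brightest tested probe of each of the 9 genes, with 1 line per array and the same span of 2.8 log2 units in each panel. Lines for Phlda1 run the same way on all 4 arrays, and those for Dusp6 cross by dye.

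The ratios of other members also shifted with the dye. In both sets 6 of the 11 member probes gave a higher ratio with mutant RNA in Cy3 than in Cy5. The sign itself followed the dye in both sets in 2 of 11, Dusp6 and the second Fgf8 probe, against 21.2% of all tested probes. The median size of the gap between orientations was 0.24 over the member probes and 0.21 over all tested probes. Across all tested probes the 2 arrays with mutant RNA in Cy5 correlated at r = 0.706, those with mutant RNA in Cy3 at 0.423, and the 2 arrays of a set at r = 0.157 for the age-matched and 0.392 for the stage-matched set. These are correlations across probes, which are not independent replicates. Averaging the dye orientations cancels such a dye effect in each set mean.

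The remaining genes of the pathway were taken from lists by role, 86 genes of which 65 were tested. One was higher, 1 was lower, and the median log2 ratio was 0.01. The calls made up 3.08% of these genes, against 4.89% of all tested genes.

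Of the 18 other FGF family genes listed, 17 had a probe on the array, 6 could be tested and 1 rose. Not all of them encode secreted ligands, Fgf11 and Fgf13 among the tested ones. Fgf5, a growth factor of the epiblast before and during gastrulation, had log2 ratios of 1.32 and 1.52 on the age-matched arrays and 0.73 and 0.63 on the stage-matched arrays. All 4 arrays were higher in mutant embryos, by a mean of 1.05 ± 0.52 (SD, n = 2 sets), or 2.07-fold (95% interval 0.69 to 1.41, adjusted p = 0.0175, limma). The age-matched set exceeded the stage-matched set by 0.74 (adjusted p = 0.00376, limma), a call that was lost without background correction, where 0 probes differed between sets. The median over the 6 tested genes was 0.14, against 0.09 without background correction and 0.29 with processed signals.

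Among 15 tested receptors and surface partners 1 was called, which fell. An unadjusted p under 0.05 was found in 4 of the 15, against 22.9% of all tested probes. Klb, the co-receptor through which endocrine FGFs such as FGF15 act in adult tissues, had log2 ratios of -0.58 and -0.78 on the age-matched arrays and -0.57 and -0.58 on the stage-matched arrays. Mutant embryos were lower on every array, with a mean of -0.63 ± 0.07 (SD, n = 2 sets), 1.54-fold lower (adjusted p = 0.0167, limma). The other Klb probe was not well above background. Those other than Klb were higher on all 4 arrays but not called. They were Fgfbp3 at 0.56 (adjusted p = 0.0545, limma), Ext2 at 0.35 (0.0709) and Fgfbp1 at 0.34 (0.0725), each with an unadjusted p under 0.05. The median of this list was -0.03. A second tested probe of Ndst1, a heparan sulphate enzyme, was also called at -0.45 (adjusted p = 0.038, limma), while its brightest probe, at -0.02, was not. Without background correction or without age-matched replicate 1 no pathway gene was called. With processed signals or offset 10, 4 were called higher and 1 lower, and with the set as a random block 6 higher and 2 lower.

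Read by brightest probe, the relay from receptor to ERK had no called gene among 19, and none had an unadjusted p under 0.05. The largest of these ratios in size was 0.24, for Frs2, the adaptor that docks to the receptor. Other tested probes could lie further from 0. Those of Ptpn11 were at -0.515 (adjusted p = 0.0697, limma) and -0.35 (0.108), not called, while its brightest probe was at 0.15. The list's median was 0.05, and -0.03 with median centring. Of 10 other feedback inhibitors none was called and 4 had an unadjusted p under 0.05, against 22.9% of all tested probes. The ERK phosphatase genes Dusp7, at -0.43 (adjusted p = 0.0934, limma), and Dusp4, at 0.39 (0.0963), lay furthest from 0 in opposite directions, and the list's median was 0.00. Of 15 other ERK-responsive targets none was called and 3 had an unadjusted p under 0.05, against the same 22.9%. Egr2 had a ratio of -0.39 and Egr1 of -0.27, both transcription factors induced early after ERK activation. A second tested probe of Ets1, an ETS transcription factor, was called at -0.43 (adjusted p = 0.0476, limma), while its brightest probe, at -0.23, was not. Ndst1, Ets1, Ptpn11, Fgfbp3, Ext2 and Fgfbp1 are named here after their values were seen. The list's median was -0.09, and -0.20 with median centring.

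**Figure D4:**
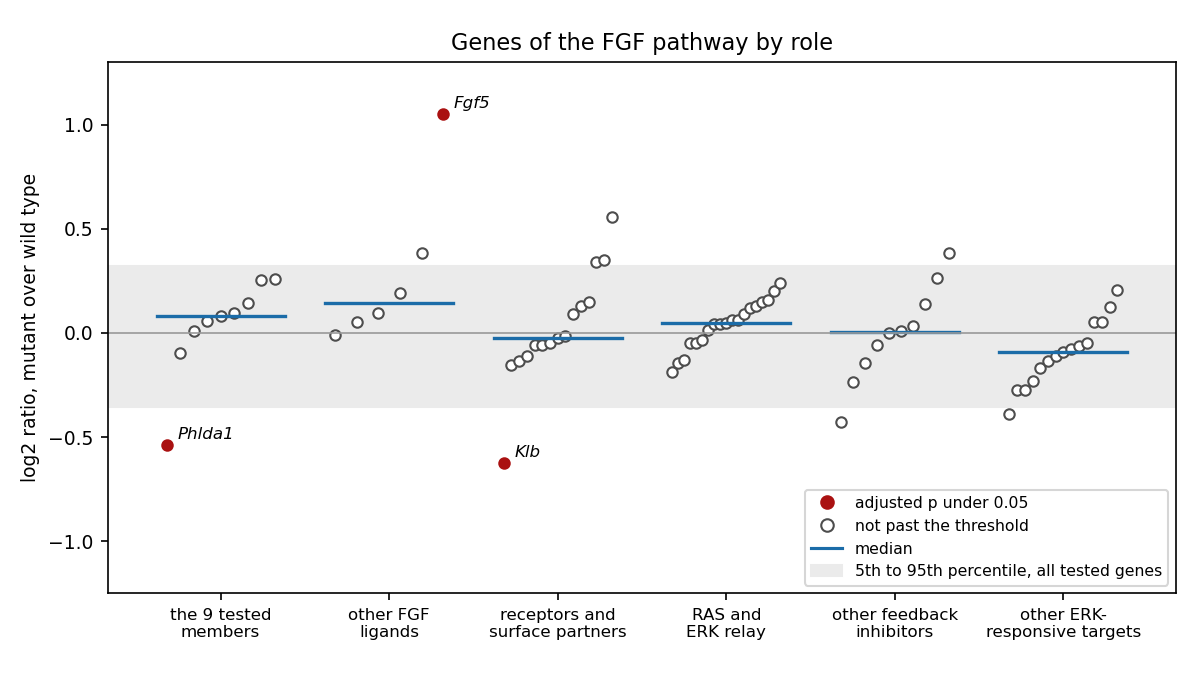
Log2 ratio of mutant over wild type (y axis) for each tested gene of the pathway by role, with filled points for calls, a line for the median of each group, and a grey band from the 5th to the 95th percentile of all tested genes. Phlda1, Fgf5 and Klb are the 3 called genes, and most others lie inside the band from -0.35 to 0.32.

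Because whole embryos were used, fewer cells of a type and less RNA per cell cannot be told apart. Markers of the places where FGF ligands are made moved in different directions. Of 5 tested midbrain-hindbrain boundary markers 1 was lower, En2 at -1.01, and the list's median was -0.16. In the other direction, 1 of the 5 had a ratio above 0, at 0.37, and was not called. Of 12 tail bud and presomitic markers 3 were higher and 0 lower, with a median of 0.29, Tbx6 at 0.89 and Dll3 at 0.79. Their median was 0.53 in the age-matched set and 0.18 in the stage-matched set. Of 5 anterior forebrain markers 2 were lower, among them Lhx2 at -0.47, and the median was 0.03. None of 8 rhombomere and otic markers was called, and the median was 0.03. The 1 with an unadjusted p under 0.05 was Egr2, whose same value is also counted among the ERK-responsive targets above. Of 10 markers of the pharyngeal arches and heart field 1 was higher, Foxc2 at 0.47, and 1 lower, Mef2c at -0.51, with a median of 0.19. The ligands made in these territories did not pass the test in either direction, and the part of these shifts in the ligands' values was not tested.

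Markers of stage, of other tissues and of the p53 response were counted in the same way. Of 7 epiblast and early streak markers 3 were higher, Mesp1 at 0.97 among them, with a median of 0.29. Their median was 0.49 in the age-matched set and 0.09 in the stage-matched set. That count and these medians include Fgf5 itself, the ligand called above, so this list is not separate from it. Of 12 heart muscle markers 11 were lower, with a median of -1.20, Myh7 at -1.69 and Tnni3 at -1.62. That median was -1.64 in the age-matched set and -0.75 in the stage-matched set. Of 12 yolk sac markers 11 were lower, with a median of -1.01. Of 7 red cell markers 3 were lower, with a median of -0.64. Of 10 p53 target genes 8 were higher, with a median of 1.34, Ccng1 at 1.87 and Eda2r at 1.74. None of 5 trophoblast or 5 maternal markers was called, with 1 unadjusted p under 0.05 in each. Some of these had opposite signs in the sets, and 3, named after their values were seen, differed between them. In the age-matched set Prl8a2 had a ratio of 0.51, Prl3d1 of 0.49 and Hbb-bt of 0.91. In the stage-matched set Prl8a2 had a ratio of -0.94, Prl3d1 of -0.39 and Hbb-bt of -1.35. The part of any of these in the lower Phlda1, the lower Klb or the higher Fgf5 was not tested.

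None of 4 sex-linked genes was called between genotypes and none had an unadjusted p under 0.05, but the ratios of all 4 differed between the sets (highest adjusted p = 0.00106, limma), and the part of this in the members' values was not tested. Btaf1 itself had a log2 ratio of 0.10 (adjusted p = 0.555, limma), which does not check the labels, since the allele is a missense change. The 4 arrays were similar in signal, with 52.9 to 59.6% of spots well above background in a channel and none saturated. These measures do not cover how well the ratios of the arrays matched, which is given above.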

How the data were processed

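Two-colour Agilent arrays of 60-base probes were read for 4 hybridisations. Spot intensity, local background and quality flags were deposited by the authors as scanner output; the labels name Feature Extraction 9.5.3, and the file headers give 10.5.1.1. The deposited log10 ratios are, per the file headers, of red over green processed signals. The deposited value table repeats them with the sign turned on dye-exchanged arrays. Other columns of the deposited files are 0 or 1 flags, such as being well above background.

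From the mean intensities and median backgrounds, limma 3.58.1 in R 4.3.3 was used for normexp correction (offset 50) and loess within arrays, with control and flagged spots at weight 0. Flagged spots were then left out, ratios turned to mutant over wild type, and spots of a probe averaged. Probes not well above background on all 4 arrays in at least 1 genotype were not tested. The 2 arrays of a set were averaged, and the 2 set means were tested against 0 with lmFit and eBayes (1 residual degree of freedom, 7.14 prior degrees). The difference between sets was fitted on the 4 arrays with set and dye as terms. Channel levels were scaled between arrays by Aquantile. The scripts were tested on simulated data. All arrays lay on 1 slide read in 1 scan.

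The members and gene lists were chosen with earlier results of these data known. From each pathway list the text names the called genes, or otherwise the 2 with the largest absolute ratio, and from each marker list at most 2. Genes said to be named after their values were seen come on top of these. Some named items and a probe sequence are not reported here. Depth has no counterpart here, and the number of arrays limits the precision. Alternatives covered background correction, normalization, signal, filter, scaling, left-out arrays and the set as a random block.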

Additional observations from a re-analysis of the deposited data

Results flagged for a closer look

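No member probe differed between the sets after adjustment, but several other genes named with them did, by a limma fit of the difference across all probes whose error is technical. These calls were lost without background correction, where 0 probes differed between sets, and with median centring 1 probe of all those tested did. Each value is the log2 ratio of the age-matched set minus that of the stage-matched set. Fgf5 differed by 0.739, with a ratio of 1.42 in the age-matched set and 0.68 in the stage-matched set (adjusted p = 0.00376). The streak and presomitic genes Mesp1 and Tbx6 differed by 0.944 and 0.731. The midbrain-hindbrain gene En2 differed by -0.857 and was lower in mutant embryos in each set. Tnni3 of heart muscle differed by -0.66, and the embryonic globin genes Hba-x and Hbb-bh1 by -1.06 and -0.992. The adult globin gene Hbb-bt differed by 2.26, with a ratio of 0.91 in the age-matched set and -1.35 in the stage-matched set. The Y-linked genes Eif2s3y and Kdm5d differed by -1.14 and -0.803, and their set means changed sign. For Kdm5d the stage-matched arrays lay on either side of 0, at -0.06 and 0.27. The part of the wider stage range, or of the sex of the pools, in the ratios of the FGF genes was not tested.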

How the results depend on the processing

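Phlda1 stayed lower in mutant embryos in all 12 alternatives and was called in 8. Without background correction its log2 ratio was -0.53 (adjusted p = 0.0666, limma), no member was called, 62 probes were called and 0 differed between sets. With 1 array left out it was -0.59 to -0.49, with 0 or 1 members and 23 to 1226 probes called. Such a set is then in 1 dye orientation. Of all probes, 2001 were called with offset 10, 1824 with processed signals, 595 without the filter and 2577 with the set as a random block. Between sets, 1 probe was called with median centring and 150 with processed signals. Median centring also moved the share of higher calls to 12.8%, against 34.7%. The other 10 member probes were called in no alternative. Median centring turned Fgf3 to -0.0388, the second Fgf8 probe to -0.0333 and Fgf15 to -0.0121. It lowered Etv4 to 0.0291 from 0.144, the brighter Spry2 probe to 0.164 from 0.256 and the second to 0.0513 from 0.132. Spry1 moved further from 0, to -0.195. Processed signals gave Fgf17 0.376 and Fgf3 0.0915, against 0.0596 and 0.0107. Left-out arrays gave Fgf3 -0.00587 to 0.0273, the second Fgf8 probe -0.161 to 0.252, Fgf17 -0.0949 to 0.214 and Dusp6 -0.13 to 0.29. Their lowest value in size was 0.16 for the brighter Fgf8 probe, 0.0221 for Fgf15, -0.0323 for Spry1 and 0.0579 for the second Spry2 probe, each over 1.5 times below the main one. Of 60 medians of the pathway lists, 22 moved by more than the spread between sets. The cause of these shifts was not tested. Each ratio already pairs mutant with wild-type RNA within an array, and the array numbers follow accession order, so they pair nothing further. The 2 set means, and dim probes such as those of Fgf3, Fgf17 and Spry4, limit what could be seen.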
